A study of Mus musculus with 4 samples.

Results

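Loss of Btg1 without a leukemia oncogene was examined as the difference between 2 arrays of mouse fetal liver progenitor cultures, Btg1-/-+Ctrl minus WT+Ctrl. A gene was compared if its log2 level was at least 6 on at least 1 of these arrays, which held for 6097 of the 18113 genes of the value table. The remaining 12016 genes lay under that floor on both arrays and were not compared. The study crossed the Btg1 gene with the fusion oncogene ETV6-RUNX1, and its title links BTG1 loss to transformation by that fusion and to higher BCL6. The 4 groups were Btg1-/- cells with control virus (Btg1-/-+Ctrl), wild-type cells with control virus (WT+Ctrl), Btg1-/- cells with ETV6-RUNX1 virus and wild-type cells with ETV6-RUNX1 virus, with 1 array each.

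The Btg1-/-+Ctrl cells carried the homozygous Btg1 knockout and a control retrovirus, and the WT+Ctrl cells carried intact Btg1 and the same kind of virus. In both groups, cells with c-Kit and without Ter119 were taken by magnetic beads from livers of C57BL/6J embryos at day 13.5, per the labels. They grew for 24 hours before infection and 48 hours after it, and then for 12 days with stem cell factor at 100 ng/ml, interleukin 7 at 20 ng/ml and FLT3 ligand at 10 ng/ml. Each group is a culture on 1 array, the number of embryos behind it is not in the labels, and the sources used here do not say which part of Btg1 was removed. No difference has a replicate check, no test was made and no p-value is given. The words higher and lower describe these arrays.

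BTG1 belongs to a family of small antiproliferative proteins that bind the deadenylases of the CCR4-NOT complex, which shorten the poly(A) tails of mRNAs. It also binds the arginine methyltransferase PRMT1 and acts with transcription factors. In human B-cell precursor leukemia the gene is often deleted, and in mouse hematopoiesis it is expressed in lymphoid progenitors. Such cytokine mixtures favor B-lymphoid and mast cell precursors, since interleukin 7 supports pro-B cells and stem cell factor is the ligand of c-Kit.

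Markers of both lineages were above the floor on both arrays. Of 9 mast cell markers matched by their own name, 9 lay at or above the floor in Btg1-/-+Ctrl and 8 in WT+Ctrl. Tpsb2, which the array lists under the synonym Mcpt6, was not counted. It lay above the floor on both, with 12.42 in Btg1-/-+Ctrl and 11.91 in WT+Ctrl. Of 10 B-cell progenitor markers, 7 lay at or above it on each, while Pax5, Rag2 and Dntt lay below. Fewer markers of other blood cells reached it. Of 7 granulocyte and monocyte markers, 3 did so in Btg1-/-+Ctrl and 1 in WT+Ctrl, and of 6 dendritic cell markers 2 did on each array, Cd74 and H2-Ab1. The basophil marker Cd200r3 reached it on both arrays, and the megakaryocyte marker Itga2b in Btg1-/-+Ctrl. The 6 T and NK cell markers, the 4 endothelial and stromal markers and the 4 hepatocyte markers lay below the floor on both. Hbb-b1 was the 1 erythroid marker of 6 above it, at 6.26 in Btg1-/-+Ctrl and 7.07 in WT+Ctrl. In such bulk RNA, a change in the number of cells of a type and a change of RNA per cell cannot be told apart.

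The 2 arrays were close to each other. Over the 5669 genes that reached the floor on each array, levels correlated at Pearson r = 0.991, and 428 genes had 1 array under the floor. The median log2 difference was -0.00 and the median absolute difference 0.13. Differences were wider among dim genes. The robust standard deviation was 0.31 for 1317 genes whose mean level lay between 6 and 7 and 0.12 for 1547 genes above 10. The spread given beside a gene below is this robust standard deviation among the gene and its 250 neighbors in mean level on either side. It is a scale for the size of a difference on these arrays and does not contain the variation between cultures.

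In Btg1-/-+Ctrl, 22 genes were at least 2-fold higher (0.361% of those compared) and 19 at least 2-fold lower (0.312%). The higher genes included the mast cell genes Fcer1a, Adora3 and Tpsab1 and the shared Fc receptor chain gene Fcer1g. The lower genes included Btg1, Xist, Rag1, Bmf and Cdkn2a. Of these 41 genes (0.672%), 2 were past 4-fold, Btg1 and Dnase1l3, both lower. A smaller threshold of 0.5 on the log2 scale was passed by 209 genes upward (3.43%) and 187 downward (3.07%), and 49.6% of all genes lay above 0. Dim genes made up much of the 2-fold set, with 1.29% of genes with a mean level of 6 to 7 past 2-fold against 0.259% of those above 10. At a mean level above 10 they were Fcer1g and D12Ertd647e upward and Btg1 and Rag1 downward.

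**Figure D1:**
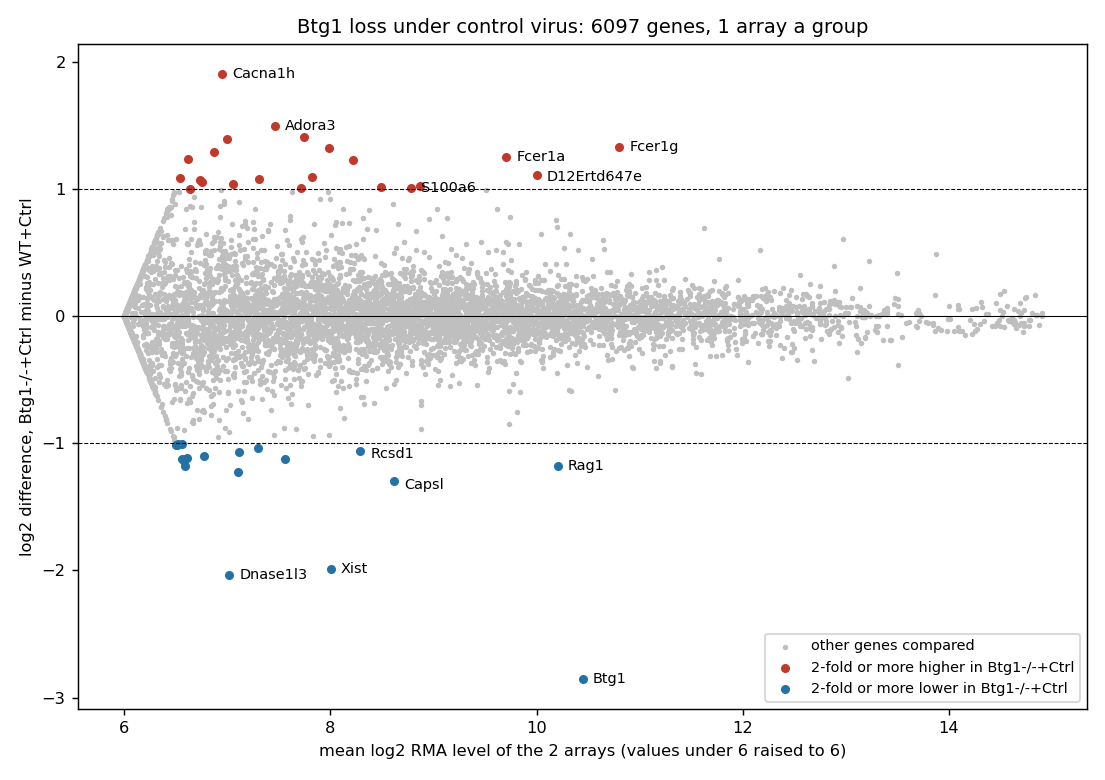
Log2 difference between Btg1-/-+Ctrl and WT+Ctrl (vertical axis) against the mean log2 level of both arrays (horizontal axis), with a point for each of 6097 genes and dashed lines at 2-fold. The cloud narrows from left to right, and Btg1 at -2.85 lies farthest from 0.

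The pair of arrays with ETV6-RUNX1 virus gives the same contrast in other cells and shares no array with the pair above. There, 41 of 6106 genes were at least 2-fold higher without Btg1 (0.671%) and 56 at least 2-fold lower (0.917%), or 1.59% either way. In that pair 7.24% of genes passed 0.5 upward and 7.47% downward, 14.7% in all, while 50.4% lay above 0 and 49.4% below. Of the 22 genes at least 2-fold higher under control virus, 8 were also above 0 in that pair and 14 below 0, with a median of -0.18. Past 2-fold upward in both pairs were Tmem132e and D12Ertd647e. Of the 18 lower genes that could be compared in both pairs, 10 were below 0 in the second and 8 above 0, with a median of -0.06. Btg1 was the 1 gene past 2-fold downward in both.

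The levels on all 4 arrays describe these genes further. Among the 22 higher genes, 18 had their lowest level of the 4 arrays in WT+Ctrl, as did 150 of the 209 genes past 0.5 upward. In 14 of the 22, WT+Ctrl lay below each other array by at least 1. A low WT+Ctrl level is part of how the higher genes were chosen, so nothing is read from these counts. The highest level was in Btg1-/-+Ctrl for 5 of the 22 and in WT+ETV6-RUNX1 for 11. Of the 19 lower genes, 16 had their lowest level in Btg1-/-+Ctrl, as did 136 of the 187 genes past 0.5 downward, and a low level there is likewise part of their choice. Because WT+Ctrl is also the control of ETV6-RUNX1 in wild type, a low value on that array enters both comparisons, and its levels are given beside the others below.

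**Figure D2:**
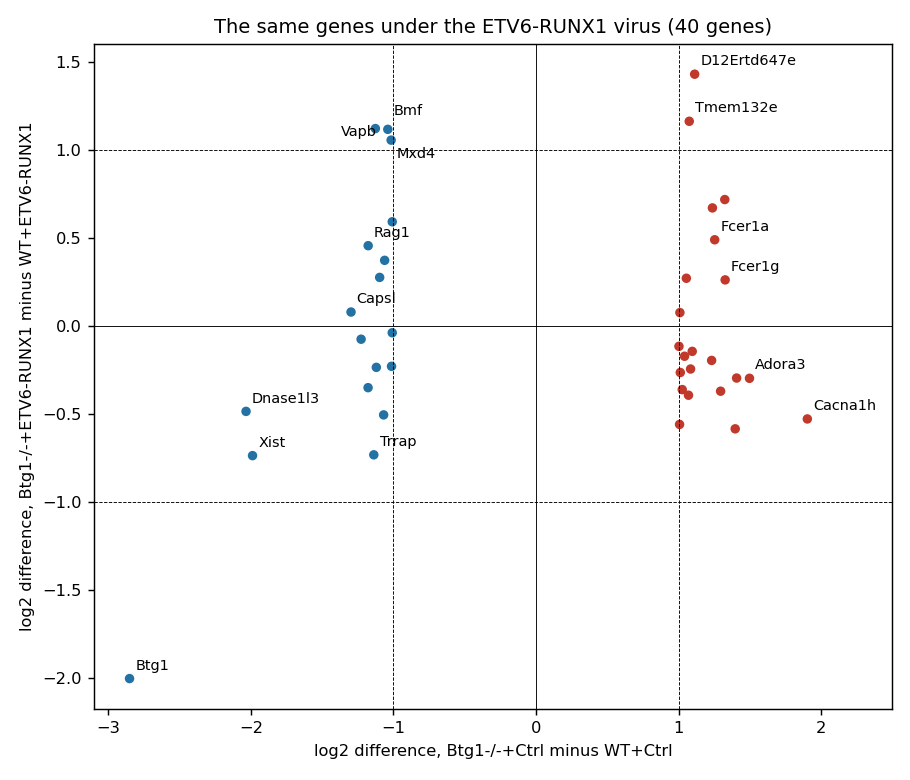
Log2 difference without Btg1 under ETV6-RUNX1 virus (vertical axis) against that under control virus (horizontal axis) for the 40 genes past 2-fold under control virus that could be compared in both, with dashed lines at 2-fold. Btg1 lies in the lower left corner, D12Ertd647e and Tmem132e in the upper right, and Vapb, Bmf and Mxd4 in the upper left.

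Btg1 had a log2 level of 9.02 in Btg1-/-+Ctrl and 11.87 in WT+Ctrl, and of 9.97 and 11.97 in the cultures with ETV6-RUNX1 without and with the gene. It was 7.21-fold lower in Btg1-/-+Ctrl (log2 difference -2.85, spread 0.13), and both knockout levels stayed above the floor. The sources used here do not place the array's probes relative to the removed part, so the signal that remained does not show whether transcript was made. Tob2, a relative that also binds CCR4-NOT, stood at 6.59 in Btg1-/-+Ctrl and 6.84 in WT+Ctrl, and Btg2, Btg3, Btg4 and Tob1 lay under the floor on both.

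Genes of the BTG/TOB and CCR4-NOT list included Btg1 itself. Of the 11 compared, Btg1 and 8 others lay below 0 and 2 above, where 50.2% of all genes lay below, and the median of the 11 was -0.24, against -0.00 over all genes compared. Besides Btg1, the member past 0.5 was Pabpc4, a poly(A)-binding protein gene, with 6.78 in Btg1-/-+Ctrl and 7.53 in WT+Ctrl (-0.76, spread 0.27). Pabpc1, the main cytoplasmic poly(A)-binding protein gene, differed by -0.41 and Pan2, the catalytic subunit gene of another deadenylase, by -0.32. The CCR4-NOT subunit genes Cnot9, Cnot10, Cnot6l and Cnot2 differed by -0.24, -0.22, -0.12 and -0.02, and Cnot11 by 0.13. The list's median in the ETV6-RUNX1 pair was 0.01. Of the catalytic subunit genes, Cnot7, Cnot8 and Cnot6 lay under the floor on both arrays, and Cnot6l, given above, lay over it.

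Among 8 genes of the arginine methyltransferase list, 6 lay above 0, where 49.6% of all genes did. The 8 include Mdm2, which is not a methyltransferase gene, at 0.04 here and 0.33 in the ETV6-RUNX1 pair. None passed 0.5, and the median was 0.09. Prmt1 stood at 12.95 in Btg1-/-+Ctrl and 12.82 in WT+Ctrl (0.13, spread 0.11). Prmt2 differed by 0.45 and Prmt7 by 0.38. Under ETV6-RUNX1 the same list had a median of -0.55.

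Bcl6, the repressor named in the study's title, was not higher without Btg1 alone. Its level was 6.33 in Btg1-/-+Ctrl and 6.75 in WT+Ctrl, a log2 difference of -0.42 beside a spread of 0.34. With ETV6-RUNX1 it stood at 8.86 in Btg1-/- and 7.30 in wild-type cells. Its corepressor genes Ncor1, Tbl1x and Bcor differed by -0.34, -0.17 and -0.10. None of the 8 compared genes of that list passed 0.5. Runx1 differed by -0.07, and Etv6 lay under the floor on both.

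Of the 10 genes around Btg1, 4 could be compared, all on 1 side of it. On the RefSeq order of protein-coding genes of chromosome 10, the 5 genes before Btg1 are Socs2, Mrpl42, Ube2n, Nudt4 and Eea1. The first 4 differed by 0.02, -0.11, -0.34 and -0.14, and Eea1 was not analysed here. On the other side Gm46240 was not analysed here, and Dcn, Lum, Kera and Epyc lay under the floor. Of 297 genes of chromosome 10 compared, Btg1 was the 1 gene past 2-fold.

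Mast cell and basophil genes were, of the 43 lists with at least 3 compared members, the list with the largest share past 0.5 upward. Mast cells arise from progenitors that keep c-Kit, store proteases and histamine in granules, and bind IgE through a receptor of alpha, beta and gamma chains. Of 27 list genes on the array 15 were compared, 14 lay above 0 and 11 passed 0.5, where 49.6% and 3.43% of all genes did. Slc18a2 reached the floor in Btg1-/-+Ctrl alone and could lie only above 0. The median was 0.61, a 1.53-fold higher level. The other 12 genes lay under the floor on both arrays. Under ETV6-RUNX1 the median was -0.11, with 4 members above 0 and 11 below.

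The genes of the IgE receptor chains differed as a group. Fcer1a, the alpha chain that holds IgE, had a level of 10.33 in Btg1-/-+Ctrl and 9.08 in WT+Ctrl, and of 10.77 and 10.28 in Btg1-/- and wild-type cells with ETV6-RUNX1. Fcer1g, the signaling gamma chain that other Fc receptors also use, had 11.46 and 10.14 under control virus and 12.15 and 11.89 with ETV6-RUNX1, in the same order of genotypes. Ms4a2, the beta chain that amplifies the signal, had 8.11 in Btg1-/-+Ctrl and 7.14 in WT+Ctrl, and 8.99 and 9.23 in Btg1-/- and wild-type cells with ETV6-RUNX1. For all 3 chains WT+Ctrl was the lowest of the 4 arrays, and Btg1-/-+Ctrl lay above it. A low WT+Ctrl level is part of how higher genes were chosen, so nothing is read from this order. The log2 differences were 1.25 for Fcer1a (2.38-fold, spread 0.15), 1.33 for Fcer1g (2.51-fold, spread 0.13) and 0.98 for Ms4a2 (1.97-fold, spread 0.25).

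Adaptors and signaling genes downstream of Fc receptors were mixed. Lat2 and Lat, adaptors phosphorylated after receptor engagement, differed by 0.84 and 0.57. Tyrobp, an ITAM adaptor of myeloid and NK receptors, had 8.47 in Btg1-/-+Ctrl and 7.74 in WT+Ctrl (0.73). Syk, the kinase recruited to phosphorylated ITAMs, differed by -0.14, and the IgG receptor genes Fcgr3 and Fcgr2b by 0.05 and -0.01. Pik3ap1, an adaptor that links B-cell receptor signaling to PI3 kinase, was lower, with 6.13 in Btg1-/-+Ctrl and 6.81 in WT+Ctrl (-0.67, spread 0.38). In all, 9 of 12 compared genes of this list lay above 0 and 6 passed 0.5 upward, where 49.6% and 3.43% of all genes did. The median was 0.36, but 0.15 with a floor of 5 and 0.57 with a floor of 7 or with genes at 6 or more on all 4 arrays.

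Granule genes differed by -0.00 to 1.10. The carboxypeptidase gene Cpa3 had 14.12 in Btg1-/-+Ctrl and 13.63 in WT+Ctrl (0.49, spread 0.10), and the chymase genes Mcpt4 and Cma1 differed by 0.43 and 0.61. The tryptase gene Tpsab1 had 8.37 in Btg1-/-+Ctrl and 7.27 in WT+Ctrl, with 8.96 and 9.10 in Btg1-/- and wild-type cells with ETV6-RUNX1 (1.10, spread 0.24), and its neighbor Tpsb2 differed by 0.52. Tryptase genes are close relatives, and the sources used here do not say whether their probes tell them apart. Hdc, which makes histamine, differed by 0.65, and Srgn, the proteoglycan core of the granule, by -0.00. Slc18a2, the amine transporter of the granule, had 6.04 in Btg1-/-+Ctrl and 5.54 in WT+Ctrl, so that its difference is only a bound of 0.04.

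Surface and regulatory genes of the list were higher as well. Adora3, the adenosine A3 receptor that enhances degranulation of rodent mast cells, had 8.21 in Btg1-/-+Ctrl and 6.71 in WT+Ctrl, and 8.92 and 9.22 in Btg1-/- and wild-type cells with ETV6-RUNX1. That was 2.82-fold higher (1.497, spread 0.25), the largest difference among higher genes that reached the floor in WT+Ctrl too. Cd63, a tetraspanin of granule membranes, differed by 0.99, Cd200r3 by 0.90 and the mast cell receptor gene Mrgprb2 by 0.51. Gata2, a transcription factor needed for mast cells, had 10.92 in Btg1-/-+Ctrl and 10.39 in WT+Ctrl (0.53, spread 0.12). In 14 of the 15 compared members WT+Ctrl was the lowest of the 4 arrays. So it was for 40.1% of all genes above 0 and for 150 of the 209 genes past 0.5 upward. A low level there is part of lying above 0, so nothing is read from this count.

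Summed on the linear scale over the 9 mast cell markers matched by their own name, the level was 43314 in Btg1-/-+Ctrl and 30318 in WT+Ctrl. It was 68754 and 70321 in Btg1-/- and wild-type cells with ETV6-RUNX1. Tpsb2, listed under a synonym, is not in these sums. Such sums weigh the brightest genes most, here Cpa3, Mcpt4 and Cma1, and markers under the floor entered them too. The sum over 7 granulocyte and monocyte markers was 456 in Btg1-/-+Ctrl and 281 in WT+Ctrl, and 664 and 583 with ETV6-RUNX1 in the same order of genotypes. Of these 7 markers, 3 reached the floor in Btg1-/-+Ctrl and 1, S100a8, in WT+Ctrl. The sum over 6 dendritic cell markers was 969.8 and 689 under control virus and 408 and 479 with ETV6-RUNX1. Of the dendritic cell markers above the floor, Cd74 had 9.52 in Btg1-/-+Ctrl and 8.75 in WT+Ctrl. H2-Ab1 went the other way, with 7.56 and 7.77. The sum over the 10 B-cell progenitor markers was 40227 in Btg1-/-+Ctrl and 41826 in WT+Ctrl, and 51010 and 39690 in Btg1-/- and wild-type cells with ETV6-RUNX1. Basophil markers other than Cd200r3, namely Mcpt8 and Prss34, lay under the floor on both arrays. The shares of these cell types in each culture are not given by the arrays, and their part in the differences was not tested.

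**Figure D3:**
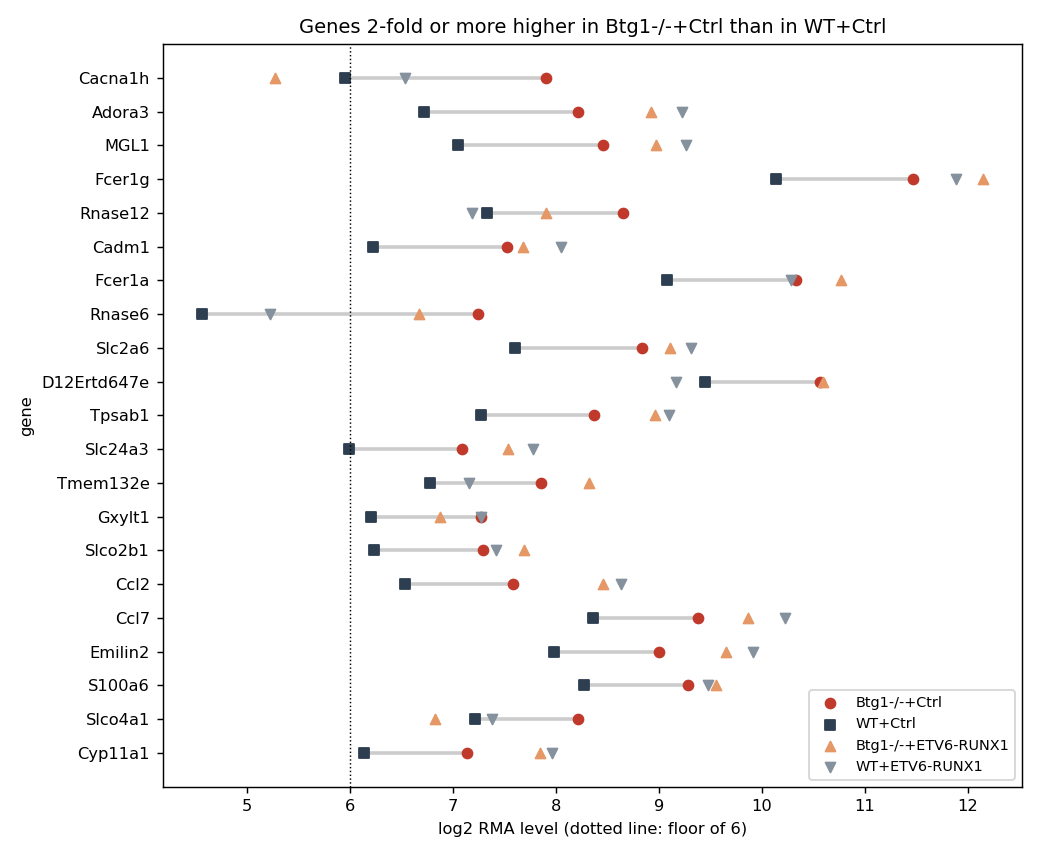
Log2 levels on all 4 arrays (horizontal axis) for 21 of the 22 genes at least 2-fold higher in Btg1-/-+Ctrl, with a grey line between the Btg1-/-+Ctrl and WT+Ctrl values and the floor dotted. For Adora3, Fcer1g, Fcer1a and Tpsab1 the WT+Ctrl square lies left of the symbols of the other 3 arrays.

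The promoters of 5 of these genes are shown because their transcripts were higher together and because GATA factors such as GATA2 bind the motif searched. The sequences are from RefSeq, 250 bases before to 50 bases after the annotated start, with capitals marking AGATAA or TGATAA on either strand.
Fcer1a (GRCm38.p6, chr1:173227180-173227479, minus strand): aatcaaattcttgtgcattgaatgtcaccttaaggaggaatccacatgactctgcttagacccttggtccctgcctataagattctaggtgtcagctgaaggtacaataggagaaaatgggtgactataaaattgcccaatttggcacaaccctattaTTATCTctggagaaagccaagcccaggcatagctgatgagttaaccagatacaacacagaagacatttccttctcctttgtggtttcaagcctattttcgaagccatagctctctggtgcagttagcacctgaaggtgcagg
Ms4a2 (GRCm38.p6, chr19:11623670-11623969, minus strand): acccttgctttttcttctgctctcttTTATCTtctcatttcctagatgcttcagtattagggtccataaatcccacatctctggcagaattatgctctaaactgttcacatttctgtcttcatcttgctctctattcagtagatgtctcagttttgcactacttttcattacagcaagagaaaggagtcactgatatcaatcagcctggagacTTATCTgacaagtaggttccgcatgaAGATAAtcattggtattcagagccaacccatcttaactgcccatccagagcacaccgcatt
Fcer1g (GRCm38.p6, chr1:171234300-171234599, minus strand): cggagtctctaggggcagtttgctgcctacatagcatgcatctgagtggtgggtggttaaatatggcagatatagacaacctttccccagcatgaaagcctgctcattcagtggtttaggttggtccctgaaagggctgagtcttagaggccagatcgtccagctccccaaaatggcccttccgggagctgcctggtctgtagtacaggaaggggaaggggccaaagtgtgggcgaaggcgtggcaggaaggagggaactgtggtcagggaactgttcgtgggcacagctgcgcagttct
Cpa3 (GRCm38.p6, chr3:20242132-20242431, minus strand): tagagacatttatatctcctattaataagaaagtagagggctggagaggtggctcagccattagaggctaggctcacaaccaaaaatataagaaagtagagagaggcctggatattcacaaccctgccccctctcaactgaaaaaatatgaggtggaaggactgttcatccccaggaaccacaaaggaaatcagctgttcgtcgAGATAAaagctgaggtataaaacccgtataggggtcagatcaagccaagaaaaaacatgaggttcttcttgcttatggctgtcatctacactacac
Adora3 (GRCm38.p6, chr3:105904171-105904470, plus strand): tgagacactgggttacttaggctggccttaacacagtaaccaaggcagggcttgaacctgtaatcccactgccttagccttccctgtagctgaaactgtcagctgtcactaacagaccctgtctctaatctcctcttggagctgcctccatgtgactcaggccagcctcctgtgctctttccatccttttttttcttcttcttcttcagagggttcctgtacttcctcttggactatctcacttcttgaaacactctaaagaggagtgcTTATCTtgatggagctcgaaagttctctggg

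The first capital of each match lies at -92 in Fcer1a, at -224, -37 and -11 in Ms4a2, at -46 in Cpa3 and at 20 in Adora3, counted from the start as 1. The Fcer1g window holds no match. Over the list, 13 of the 15 compared genes had a promoter in the table, with 15 promoters, and 8 of these (53.3%) held AGATAA or TGATAA, a promoter with both being counted once. Among all 32851 promoters of the table the share was 18.6%, and among the 6044 promoters of genes compared here it was 10.0%. For the 22 genes at least 2-fold higher it was 13.6% of 22 promoters of 14 genes, and for the B-cell progenitor list 11.1% of 27 promoters.

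Other motifs were searched on both strands in the same way. The E-box CAGCTG occurred in 10 of 22 promoters of the genes at least 2-fold higher (45.5%), in 6 of 15 of the mast cell list (40.0%) and in 4 of 16 of the genes at least 2-fold lower (25.0%). Its share was 13.9% among promoters of genes compared and 16.3% in the table. CATGTG occurred in 6 of the 22 (27.3%), in 8.07% of promoters of genes compared and in 14.2% of the table. CACGTG occurred in 2 of the 22 (9.09%), below the 10.8% of genes compared and above the 7.15% of the table. Promoters of the same gene can overlap, so these counts are not independent, and a match describes letters in a window only.

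Of the other higher genes, several lie on the cell surface or are secreted. The chemokine genes Ccl2 and Ccl7, which attract monocytes, had 7.58 and 9.38 in Btg1-/-+Ctrl and 6.54 and 8.36 in WT+Ctrl. With ETV6-RUNX1 they stood at 8.45 and 9.86 in Btg1-/- and at 8.63 and 10.22 in wild-type cells. They were 2.06-fold and 2.04-fold higher under control virus, while the other 6 compared genes of the chemokine and NF-kB list differed by -0.29 to -0.06. Cadm1, an adhesion molecule of the immunoglobulin family, had 7.52 in Btg1-/-+Ctrl and 6.22 in WT+Ctrl (1.29, spread 0.33). The gene the file names MGL1 had 8.45 and 7.04 on the same arrays (1.41), and Emilin2, an extracellular matrix glycoprotein, 8.995 and 7.98 (1.01). All of these were lower in WT+Ctrl than on each other array, and a low level there is part of how they were chosen.

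Transporters and channels were also among the higher genes. Cacna1h, a T-type calcium channel subunit, had 7.90 in Btg1-/-+Ctrl and 5.94 in WT+Ctrl, and 5.27 and 6.53 in Btg1-/- and wild-type cells with ETV6-RUNX1. It was at least 3.74-fold higher under control virus and highest in Btg1-/-+Ctrl. Slc2a6, a hexose transporter, had 8.84 in Btg1-/-+Ctrl and 7.60 in WT+Ctrl (1.23), and Slc24a3, a sodium-calcium exchanger, was at least 2.12-fold higher. The organic anion transporter genes Slco2b1 and Slco4a1 differed by 1.05 and 1.01. For Slco4a1 the pair with ETV6-RUNX1 differed by -0.56.

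Some higher genes kept their direction in the ETV6-RUNX1 pair. Tmem132e, a transmembrane protein gene, had 7.85 in Btg1-/-+Ctrl and 6.77 in WT+Ctrl, and 8.32 in Btg1-/- and 7.16 in wild-type cells with ETV6-RUNX1. The differences were 1.07 and 1.16. D12Ertd647e had 10.56 in Btg1-/-+Ctrl and 9.45 in WT+Ctrl, and 10.59 and 9.16 with ETV6-RUNX1 in the same order of genotypes, with differences of 1.11 and 1.43. RefSeq lists that name as a synonym of Ifi27, an interferon-induced gene, for which the file has a separate row that differed by 0.41 and 1.71.

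The ribonuclease genes Rnase12 and Rnase6 were higher in Btg1-/- in both pairs. Rnase12 differed by 1.32 under control virus and 0.72 with ETV6-RUNX1. Rnase6 had 7.24 in Btg1-/-+Ctrl and 4.56 in WT+Ctrl, at least 2.36-fold higher, and 6.67 and 5.22 with ETV6-RUNX1. The remaining higher genes were S100a6, a calcium-binding protein gene (1.01), Gxylt1, a xylosyltransferase gene (1.07), and Cyp11a1, the cholesterol side-chain cleavage enzyme gene (1.00), each lowest in WT+Ctrl.

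Stem and early progenitor genes divided. Of 14 compared, 7 lay above 0 and 7 below, with a median of -0.01. Past 0.5 upward were 5 of them, where 3.43% of all genes were, but Cd34 and Tal1 among these reached the floor in Btg1-/-+Ctrl and not in WT+Ctrl and could lie only above 0. None passed 0.5 downward. Meis2 and Meis1, homeobox cofactors of HOX proteins, differed by 0.94 and 0.56. Cd34, a sialomucin of early progenitors and mast cells, had 6.97 in Btg1-/-+Ctrl and 5.89 in WT+Ctrl and was at least 1.96-fold higher. Tal1, a basic helix-loop-helix factor of stem, erythroid and mast cells, had 6.81 and 5.06 and was at least 1.75-fold higher. Gata2, given above, is the fifth. All 5 were lowest in WT+Ctrl, and a low level there is part of lying past 0.5 upward. Eng, Lmo2, Fli1, Hhex and Lyl1 differed by -0.25, -0.28, -0.25, -0.13 and -0.13.

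Genes of other lineages were mostly under the floor. Of 17 megakaryocyte genes 5 were compared, with 3 above 0 and 2 below. Cd9, a tetraspanin also found on mast cells, was the member past 0.5, at 0.92, and Gfi1b had the lowest difference, -0.32. Itga2b reached the floor in Btg1-/-+Ctrl and not in WT+Ctrl and could lie only above 0. Of 33 granulocyte and monocyte genes 6 were compared, and 3 of these, Spi1, Ctsg and S100a9, reached the floor in Btg1-/-+Ctrl alone of the 2 arrays and could lie only above 0. The other 3 differed by 0.02 to 0.73, the last for S100a8 with 7.78 in Btg1-/-+Ctrl and 7.05 in WT+Ctrl. Of 21 erythroid genes 3 were compared, with Hbb-b1 at -0.82, Car2 at -0.31 and Tfrc at 0.17. Among 5 compared T, NK and innate lymphoid genes, 4 lay above 0 and Ly9, at -0.27, below. The kinase gene Lck differed by 0.83 and Id2, an inhibitor of E proteins, by 0.73. The T-cell receptor component genes Cd3e and Cd3g lay under the floor.

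B-cell progenitor genes leaned slightly lower. Of 36 on the array 27 were compared, 19 lay below 0 and 8 above, with a median of -0.10, where 50.2% of all genes compared lay below 0. In the ETV6-RUNX1 pair the same 27 genes had a median of 0.41, with 26 above 0. Among genes that define the lineage, Cd79b, a signaling chain of the B-cell receptor, had 13.23 in Btg1-/-+Ctrl and 13.34 in WT+Ctrl. Ebf1, a transcription factor that specifies the lineage, had 9.65 in Btg1-/-+Ctrl and 9.63 in WT+Ctrl. The surrogate light chain gene Vpreb1 differed by 0.17 and its copy Vpreb2 by -0.66. Vpreb1 and Vpreb2 are near-identical, so the assignment of signal between them is uncertain.

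Rag1 was the B-cell gene past 2-fold. It encodes the catalytic subunit of the V(D)J recombinase, which joins immunoglobulin gene segments. Its level was 9.62 in Btg1-/-+Ctrl and 10.79 in WT+Ctrl, and 11.09 in Btg1-/- and 10.63 in wild-type cells with ETV6-RUNX1. Btg1-/-+Ctrl was thus the lowest of the 4 arrays, by at least 1.02, and a low level there is part of how the gene was chosen. The log2 difference was -1.18 (2.26-fold lower, spread 0.13) under control virus and 0.46 with ETV6-RUNX1. Rag2, its partner, lay under the floor on both control arrays at 5.18 in Btg1-/-+Ctrl and 5.78 in WT+Ctrl.

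Other genes of recombination and end joining differed less. Of 8 compared, with Rag1 counted, 7 lay below 0, where 50.2% of all genes did, and the median was -0.18. Atm, among the 7, reached the floor in WT+Ctrl and not in Btg1-/-+Ctrl and could lie only below 0. Xrcc6, the Ku70 gene, differed by -0.29, Lig4, the ligase of end joining, by -0.24, and Poll, a gap-filling polymerase, by 0.52. Lef1, a transcription factor of pro-B cells from the B-cell list, had 6.24 in Btg1-/-+Ctrl and 7.07 in WT+Ctrl (-0.83, spread 0.32). Ly6d, a surface protein of committed lymphoid progenitors, was higher in both pairs, by 0.57 and 0.63. Blk, a B-lymphoid Src kinase gene, differed by 0.35 under control virus and 1.34 with ETV6-RUNX1.

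The glucocorticoid and FOXO target list, which also holds Foxo1 itself, leaned lower. Of 18 compared genes 13 lay below 0, where 50.2% of all genes lay, with a median of -0.18. Txnip, an inhibitor of thioredoxin and glucose uptake, had 10.36 in Btg1-/-+Ctrl and 10.83 in WT+Ctrl (-0.47, spread 0.12). Tsc22d3, the GILZ gene, differed by -0.29. None of the 18 passed 0.5 downward, and Per1, with a bound of 0.65, was the member past it upward. Under ETV6-RUNX1 the median of the list was 0.46. Il7r, the interleukin 7 receptor gene, differed by -0.24 and 0.73 in the pairs.

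**Figure D4:**
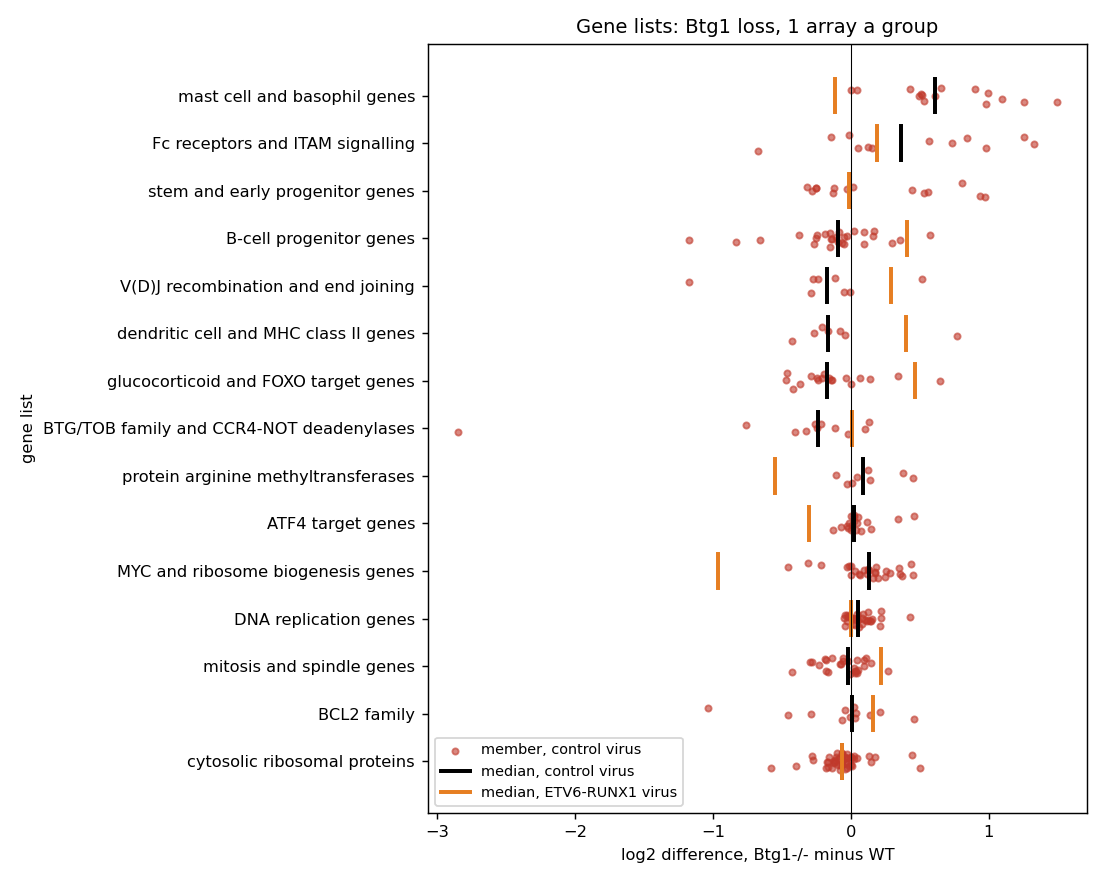
Log2 differences without Btg1 (horizontal axis) for the compared members of 15 gene lists under control virus (red points), with the list medians under control virus (black bars) and under ETV6-RUNX1 virus (orange bars). The mast cell median of 0.61 lies farthest right of the black bars, and the MYC and ribosome biogenesis medians of 0.13 and -0.97 are farthest apart.

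Among the lower genes, 2 act in cell cycle control and death. Cdkn2a, which encodes the INK4a and ARF tumor suppressors, had 6.58 in Btg1-/-+Ctrl and 7.64 in WT+Ctrl, and 5.31 and 6.51 in Btg1-/- and wild-type cells with ETV6-RUNX1. It was 2.10-fold lower (-1.07, spread 0.30), and WT+Ctrl was the highest of the 4 arrays. Bmf, a BH3-only protein that opposes BCL2, had 6.77 in Btg1-/-+Ctrl and 7.81 in WT+Ctrl, and 8.61 and 7.49 with ETV6-RUNX1 in the same order of genotypes. It was 2.06-fold lower under control virus (-1.04, spread 0.24) and higher by 1.12 on the log2 scale with the fusion.

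The lists around these genes were centered near 0. Of 12 compared BCL2 family genes, 6 lay above and 6 below 0, with Bid at -0.46, Bcl2 at 0.21 and Mcl1 at -0.04. Of 17 genes of the D cyclin, CDK inhibitor and E2F list, cyclin D1 (Ccnd1) differed by 0.78, with 7.32 in Btg1-/-+Ctrl and 6.54 in WT+Ctrl, and Ccnd2 and Ccnd3 by 0.16 and -0.09. The p53 target list held 14 compared genes, Trp53 itself among them. Zmat3, an RNA-binding protein gene, had 8.44 in Btg1-/-+Ctrl and 9.32 in WT+Ctrl (-0.89, spread 0.17). Phlda3, an inhibitor of AKT, differed by -0.48, and Cdkn1a, the p21 gene, by 0.14. The p53 list had a median of -0.05, and Trp53 itself differed by 0.06.

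Proliferation genes were nearly level. Of 32 DNA replication genes 24 lay above 0, where 49.6% of all genes did, with a median of 0.05. Their differences ran from -0.05 to 0.43. Of 27 mitosis genes 12 lay above 0 with a median of -0.02, and Ccna2, cyclin A2, had the lowest difference at -0.43. No gene of either list passed 0.5, where 6.49% of all genes compared did.

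Xist, the noncoding RNA of the inactive X chromosome, had 7.01 in Btg1-/-+Ctrl and 8.996 in WT+Ctrl, 3.97-fold lower. The Y-linked gene Eif2s3y had 9.93 in Btg1-/-+Ctrl and 9.43 in WT+Ctrl, and Kdm5d, also on the Y, 6.92 and 5.35. The Y-linked genes Ddx3y, with 2.81 and 2.87, and Uty, with 5.39 and 3.95, lay under the floor on both arrays. Transcripts of Xist and of Eif2s3y thus lay above the floor on both arrays. With ETV6-RUNX1, Xist stood at 7.85 in Btg1-/- and 8.59 in wild-type cells and Eif2s3y at 10.03 and 9.07. X-linked genes as a whole had a median difference of -0.05 over 173 genes. The sex of the embryos in each culture is not given by the labels, and its part in other differences was not tested.

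Several lower genes regulate chromatin and transcription. Med25, a Mediator subunit, had 6.49 in Btg1-/-+Ctrl and 7.71 in WT+Ctrl (-1.23, spread 0.29), and 7.25 and 7.33 in Btg1-/- and wild-type cells with ETV6-RUNX1. Of the other 20 compared Mediator genes none passed 0.5, with a list median of 0.01. Trrap, the scaffold of the SAGA and NuA4 acetyltransferase complexes, had 6.01 in Btg1-/-+Ctrl and 7.14 in WT+Ctrl (-1.14, spread 0.34). Of the other 20 compared genes of these complexes none passed 0.5 either. Smarca2, an ATPase of SWI/SNF remodelers, differed by -1.12, and Mxd4, a MAX partner that opposes MYC, was at least 2.02-fold lower. Several of these values lie close to the floor in Btg1-/-+Ctrl, where the spread is wide.

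The remaining lower genes have varied roles. Dnase1l3, a secreted nuclease gene, had 4.42 in Btg1-/-+Ctrl and 8.03 in WT+Ctrl, at least 4.09-fold lower, and 3.77 and 6.49 in Btg1-/- and wild-type cells with ETV6-RUNX1. Its order of levels was the same in both pairs. Capsl, a calcyphosine-like gene, had 7.97 in Btg1-/-+Ctrl and 9.27 in WT+Ctrl, while the other arrays stood at 9.28 and 9.21. Rcsd1, which binds the actin capping protein, differed by -1.06, Vapb, a tether of the endoplasmic reticulum, by -1.13 and Megf10, an engulfment receptor gene, by -1.18. Nit2, an amidase gene, and Etfbkmt, a methyltransferase gene, both differed by -1.01. The lower genes also included 2 rows known by a locus name.

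**Figure D5:**
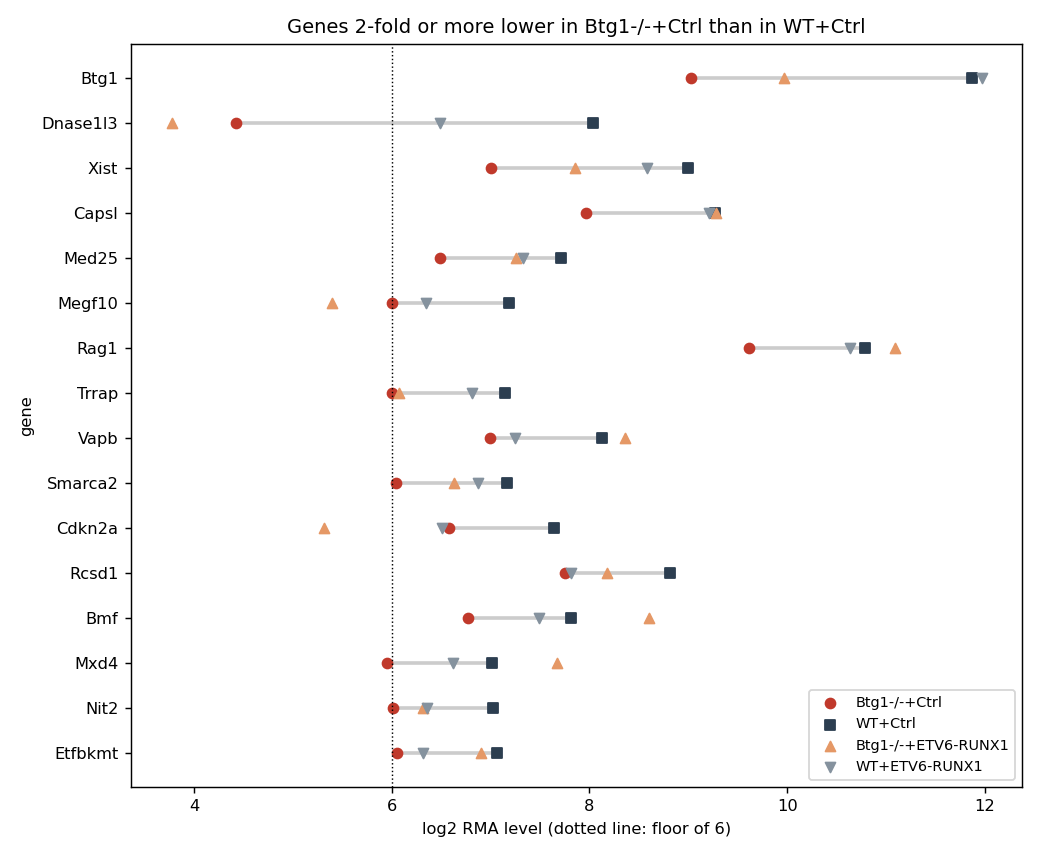
Log2 levels on all 4 arrays (horizontal axis) for 16 of the 19 genes at least 2-fold lower in Btg1-/-+Ctrl, with a grey line between the Btg1-/-+Ctrl and WT+Ctrl values and the floor dotted. For Btg1 both knockout arrays lie left of both wild-type arrays, while for Capsl and Rag1 the Btg1-/-+Ctrl value lies apart from the other 3.

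Growth and stress programs were compared because BTG1 is known to act with ATF4 and PRMT1 and because MYC drives ribosome production. Of 27 MYC and ribosome biogenesis genes 20 lay above 0, where 49.6% of all genes did, none passed 0.5, and the median was 0.13. Max, among the 20, reached the floor in Btg1-/-+Ctrl and not in WT+Ctrl and could lie only above 0. Srm, the spermidine synthase gene, had 10.31 in Btg1-/-+Ctrl and 9.95 in WT+Ctrl (0.35, spread 0.13), and the nucleolar genes Nop56 and Ncl differed by 0.13 and 0.11. Under ETV6-RUNX1 all 25 genes compared lay below 0, with a median of -0.97. The ATF4 target list held 19 compared genes, Atf4 itself among them. Of these 13 lay above 0, beside the same 49.6% of all genes, with a median of 0.02, and none passed 0.5. Atf4 had 11.31 in Btg1-/-+Ctrl and 11.29 in WT+Ctrl, and its targets Asns, Psat1 and Chac1, which act in asparagine, serine and glutathione metabolism, differed by 0.02, 0.03 and -0.13.

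Protein synthesis and energy genes showed small shifts. Among 48 cytosolic ribosomal protein genes 35 lay below 0, where 50.2% of all genes did, with a median of -0.07. Rpl22, whose loss impairs early lymphocyte development in mice, differed by -0.58 (spread 0.13), and the highest difference in the list was 0.50. Among 63 oxidative phosphorylation genes the median was -0.04 and none passed 0.5. Mitochondrial ribosomal protein genes had a median of 0.04 over 68, proteasome genes of 0.02 over 31 and aminoacyl-tRNA synthetase genes of 0.08 over 18. Chaperone genes stood at 0.13, with Hspa5, the BiP gene, at 0.61, and in the ETV6-RUNX1 pair at -0.36 with 24 of 24 below 0. Lysosome genes had a median of 0.08 over 28 with none past 0.5, and glycolysis and hypoxia genes of 0.06 over 24 with the prolyl hydroxylase gene Egln3 at 0.64. Cholesterol and fatty acid synthesis genes had a median of 0.08 over 20, with Lss, the lanosterol synthase gene, at 0.57.

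Signal-responsive genes differed in both directions. Of 12 immediate early and ERK feedback genes, Fosb, Ier3 and Fos differed by 0.86, 0.78 and 0.69 and Jun by -0.53. Fos stood at 8.70 in Btg1-/-+Ctrl and 8.01 in WT+Ctrl, and at 9.14 and 9.29 in Btg1-/- and wild-type cells with ETV6-RUNX1. The STAT5 list, which also holds the pathway genes Stat5a, Jak1, Jak3 and Il7r, had a median of -0.04 over 13. Of its target genes, Socs3 differed by -0.46 and Socs2 by 0.02. Interferon-induced genes had a median of -0.00 over 17, with the peptide transporter gene Tap1 at 0.63. The list of dendritic cell and class II genes had 6 of 7 members below 0, where 50.2% of all genes lay. The exception was Cd74, the invariant chain gene, with 9.52 in Btg1-/-+Ctrl and 8.75 in WT+Ctrl, and 7.14 and 8.19 in Btg1-/- and wild-type cells with ETV6-RUNX1. H2-Ab1, a class II chain, differed by -0.21.

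Housekeeping genes give a scale for these values. Of 11 compared, 6 lay above 0 with a median of 0.03. Actb, Ppia, Tbp, Hprt, Eef1a1, B2m and Gapdh lay between -0.14 and 0.05, while Gusb, Tubb5, Rplp0 and Ywhaz differed by 0.21, 0.32, 0.50 and 0.76. The range of these 11 genes, from -0.14 to 0.76, reached past the threshold of 0.5. The integrin gene Itgb7 and the tetraspanin gene Tspan31 differed by 0.63 and by a bound of -0.61, and the proteasome genes Psmb5 and Psmc6 by 0.65 and by a bound of -0.91.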

How the data were processed

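RNA from 4 cultures was measured on Illumina MouseRef-8 arrays, 1 array per group. The authors normalized the arrays together with RMA in ArrayStar and deposited log2 levels, per the file headers. Such normalization can hide a shift shared by all genes. The sources used here do not say how probes of 1 gene were summarized. The deposited workbook has identical log2 levels for all 18113 genes, and its 5 fold columns were not used. A further 8 columns of unnormalized values match no sample's labels and were not used.

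Levels under 6 were raised to 6, a gene was compared if at least 1 of the 2 arrays reached 6, and a fold with 1 array under 6 is a lower bound. Calls were a log2 difference of at least 1, with 0.5 as a smaller threshold. The spread is the median absolute deviation, multiplied by 1.4826, of the differences of a gene and 250 neighbors in level on either side. Of the gene names, 14304 matched a symbol and 2689 a synonym in RefSeq (GRCm38.p6), and 1120 kept the file's name. The naming rule covered all genes past 2-fold except locus names, up to 6 members of a list each way past 0.5, its 3 members of highest level, and the BTG family, Bcl6, Etv6, Runx1, housekeeping, sex-linked and neighboring genes. Not all genes that it selects are reported here, and 2 genes past 2-fold are counted without a name. Other list members are examples chosen with their values known. The members, lists and floor were chosen with earlier results of these data known. Of 45 lists, 43 had at least 3 compared members. The number of arrays, 1 a group, limits the precision. The calculations used Python 3.11.15, numpy 2.4.6, pandas 2.3.3 and matplotlib 3.10.9, and were tested on simulated arrays. Alternatives tried were floors of 5 and 7, levels as deposited, genes above the floor on both or on all 4 arrays, an equal 75th percentile, and a requirement of 3 times the spread.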

Additional observations from a re-analysis of the deposited data

Results flagged for a closer look

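The differences of Vapb, Bmf and Mxd4 between Btg1-/- and wild-type cells ran in opposite directions under the control virus and the ETV6-RUNX1 virus, past 2-fold in each. The difference under ETV6-RUNX1 minus that under control virus was 2.25 for Vapb, 2.15 for Bmf and 2.07 for Mxd4 on the log2 scale. Vapb had 6.997 in Btg1-/-+Ctrl and 8.12 in WT+Ctrl, and 8.36 in Btg1-/- and 7.24 in wild-type cells with ETV6-RUNX1. Mxd4 had 5.95 in Btg1-/-+Ctrl, under the floor, and 7.02 in WT+Ctrl, and 7.67 and 6.62 with ETV6-RUNX1. With 1 array a group these differences were not tested.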

How the results depend on the processing

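The counts of genes past 2-fold depended on the floor. With a floor of 5 they were 55 higher and 45 lower in Btg1-/-+Ctrl, and with levels as deposited also 55 and 45, in each case holding all 22 and 19 genes of the report. With a floor of 7 they were 12 higher and 7 lower, since fewer genes are compared and differences of dim genes shrink. Genes at or above 6 on both arrays gave 19 and 15, those on all 4 arrays 19 and 13, an equal 75th percentile 21 and 19, and the requirement of 3 times the spread 22 and 15. None of the 41 genes changed sign under these settings. With a floor of 7, list medians near 0 changed sign for the STAT5 list (0.02, against -0.04) and interferon-induced genes (0.01, against -0.00). They also did so for integrins and tetraspanins (-0.02, against 0.02) and polyamine genes (-0.01, against 0.02), the last also with genes at 6 or more on all 4 arrays. The median of granulocyte and monocyte genes was 0.22, but 0.57 with levels as deposited, that of T, NK and innate lymphoid genes 0.20, but 0.47 with genes at 6 or more on all 4 arrays, and that of HOX genes and cofactors 0.47, but 0.15 with a floor of 7. A floor of 7 moved 22 of these 41 genes by more than their spread. No paired analysis was possible because each group has 1 array, and an additive fit of genotype and virus over the 4 arrays was not run. With 1 array a group, differences of dim genes are the least precise, and variation between cultures was not measured.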
